A study of Mus musculus with 12 samples.

Results

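Mouse kidneys that carried both manipulations of the study, Cre and nephrectomy, were compared with kidneys that carried neither. The comparison takes the 3 UNx CrePlus libraries and the 3 sham CreMinus libraries, 6 of the 12 libraries of the series, chosen by the description each sample carries. UNx CrePlus kidneys came from tamoxifen-treated mice of a Pkd1 model with Cre, in which a kidney was removed (unilateral nephrectomy, UNx) and the remaining one was collected. Sham CreMinus kidneys came from tamoxifen-treated mice of the same model without Cre, which had a sham operation. In all groups the mice were adults of 6 to 8 weeks, and tissue was taken 4 weeks after surgery. The other two groups, sham CrePlus and UNx CreMinus with 3 libraries each, carry a single manipulation and serve as the reference for each factor. The labels name neither the promoter that drives Cre nor the part of Pkd1 that is deleted, and whole kidney was used, so all cell types of the organ share a library.

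Pkd1 encodes polycystin-1, a membrane protein of the primary cilium of tubule cells, and its loss leads to fluid-filled cysts. Removing a kidney makes the remaining kidney grow, and in mice with Pkd1 deleted in adult life such growth is known to speed cyst formation. p53 is a transcription factor that is activated by DNA damage and other stress, and it switches on genes that halt the cell cycle or start cell death.

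Expression is given as CPM, the counts of a gene relative to the TMM-scaled total of its library, and changes as log2 fold change ± SE of UNx CrePlus against sham CreMinus, except where another pair of groups is named. A gene was called where its Benjamini-Hochberg adjusted p from edgeR's quasi-likelihood test was under 0.05. Replicates have no order, and values are listed as replicates 1, 2 and 3.

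Depth and sex were not balanced in this comparison. The UNx CrePlus libraries held 41699032 to 42785476 counts and the sham CreMinus libraries 20779943 to 22181769, so depth and group cannot be told apart between the 6 libraries. By sex chromosome genes, UNx CrePlus replicates 1 and 2 and sham CreMinus replicate 3 were male and the other 3 of the 6 were female. The first principal component of all 12 libraries held 44.3% of the variance and separated the sexes. Male-biased kidney genes had a median log2 fold change of 0.45 between the groups and female-biased genes -0.72, and these were -0.17 and -0.49 with a sex term. UNx CrePlus replicate 3, the female, was therefore the only UNx CrePlus kidney that could be set against 2 controls of its own sex. All 26 proximal tubule markers, 18 loop and distal tubule markers, 20 collecting duct markers and 12 podocyte markers on the lists passed the low-count filter.

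Pkd1 (GRCm38 chromosome 17, 24548689 to 24596514) was at 76.8, 60.3 and 57.8 CPM in sham CreMinus kidneys and at 45.5, 39.6 and 45.1 CPM in UNx CrePlus kidneys. Each UNx CrePlus library lay below each sham CreMinus library, as was the case for 11.3% of all tested genes. Sham CrePlus kidneys held 64.1, 46.1 and 45.9 CPM and UNx CreMinus kidneys 49.4, 49.3 and 71.6 CPM. The log2 fold change was -0.58 ± 0.18 and did not pass (edgeR adjusted p = 0.221). Reads from the part of Pkd1 that is not deleted are counted with the rest, so this value does not measure the deletion. Irf5 (chromosome 6, 29526130 to 29541869), a transcription factor of macrophages and other immune cells, was at 12.9, 11.8 and 15.8 CPM in controls and at 14.9, 27.6 and 11.3 CPM in UNx CrePlus kidneys. The groups overlapped, and of the 3 UNx CrePlus libraries replicate 2 alone was above all controls, as were the 3 sham CrePlus libraries at 16.5, 17.4 and 22.7 CPM. Its log2 fold change was 0.41 ± 0.29 (edgeR adjusted p = 0.533) and turned to -0.043 without UNx CrePlus replicate 2.

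Across 14970 tested genes, 23 were called, 0.154% of all tested, of which 18 rose (0.12%) and 5 fell (0.0334%). All 23 had libraries of the 2 groups that did not overlap, as had 21.8% of all tested genes. The genes that rose included 5 targets of p53, a prostaglandin synthase (Ptgds), a chondroitin synthesis factor (Chpf), the estrogen receptor Esr1, the transcription factor gene Glis2 and the chemokine gene Cxcl16. The genes that fell included the histidine-breakdown enzyme Uroc1 and the potassium channel gene Kcnt1. Changes of more than 2-fold were found for 13 of the 23. The size of the called changes had a median of 1.14 on the log2 scale. DESeq2 called 413 genes (289 higher, 124 lower). Of the 14970 genes tested here it called 286 higher (1.91%) and 124 lower (0.828%). A fit with a term for sex called 141, 0.942% of all tested (97 higher, 0.648%, and 44 lower, 0.294%), which held all 23. With terms for both sex and depth 0 genes were called and 840 had an unadjusted p under 0.05. Only UNx CreMinus held both deep and shallow libraries, and its 1 deep library, replicate 1, was also its only male. The depth term therefore rests on 1 library. Leaving out UNx CrePlus replicate 3, the female, raised the count to 252, and leaving out sham CreMinus replicate 2 or UNx CrePlus replicate 1 lowered it to 5.

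p53 target genes were the list with the most called members. As with the other lists, it was chosen with earlier results of these data known, so its counts are descriptions and not a test. Of 24 tested targets, 23 had a positive fold change and 5 were called, against 0.12% of all genes called higher. The list's median log2 fold change was 0.49, against -0.005 for all tested genes. The direction of the listed genes was 23 of 24 positive, where 49.1% of all tested genes were positive. At an unadjusted p under 0.05, 12 of the 24 were higher, against 7.46% of all genes, and 12 lay apart from the controls in the higher direction, against 10.4%. Without UNx CrePlus replicate 2 the median of the list was 0.27, and 0.62 without UNx CrePlus replicate 3.

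Cdkn1a (chromosome 17, 29090979 to 29100722), which encodes the cell cycle inhibitor p21, was at 10.999, 8.60 and 8.65 CPM in sham CreMinus kidneys and at 49.1, 46.8 and 37.3 CPM in UNx CrePlus kidneys. Every UNx CrePlus library was above every other library of the series. The change was 2.24 ± 0.22, a 4.71-fold rise (edgeR adjusted p = 0.0024). Sham CrePlus kidneys held 25.2, 25.8 and 19.6 CPM and UNx CreMinus kidneys 8.23, 15.4 and 10.7 CPM, so kidneys with Cre and no nephrectomy lay between the controls and the joint group. Eda2r (chromosome X, 97333837 to 97377234), a receptor of the TNF receptor family, was at 1.18, 1.03 and 1.31 CPM in controls and at 7.44, 4.68 and 6.23 CPM in UNx CrePlus kidneys. It rose by 2.38 ± 0.30 (edgeR adjusted p = 0.014), with sham CrePlus kidneys at 3.52, 3.87 and 3.21 CPM. Psrc1 (chromosome 3, 108383804 to 108388231), a spindle-associated protein gene that p53 regulates, went from 0.86, 0.705 and 0.374 CPM to 4.36, 4.18 and 3.11 CPM. Its change was 2.58 ± 0.37 (edgeR adjusted p = 0.0294), the largest fold of the p53 targets.

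Zmat3 (chromosome 3, 32334792 to 32365665), which encodes a p53-induced RNA-binding protein, was at 23.8, 25.2 and 29.5 CPM in controls and at 55.0, 53.6 and 50.4 CPM in UNx CrePlus kidneys, a 2.02-fold rise (log2 fold change 1.02 ± 0.09, edgeR adjusted p = 0.00204). Ccng1 (chromosome 11, 40748552 to 40755309), a cyclin gene and p53 target that was chosen for mention after its values were seen, rose 1.83-fold. It was at 178, 196 and 216 CPM in controls and at 363, 353 and 367 CPM in UNx CrePlus kidneys (edgeR adjusted p = 0.0341). Both genes had libraries of the 2 groups well apart. Targets that did not pass included Gdf15, a stress cytokine gene (1.30 ± 0.27, edgeR adjusted p = 0.107), Trp53inp1 (0.81 ± 0.17, adjusted p = 0.107), Plk2 (0.72 ± 0.13, adjusted p = 0.0546) and Phlda3 (1.04 ± 0.27, adjusted p = 0.176), all chosen after their values were seen. With a sex term Trp53inp1 and Plk2 were called as well, at adjusted p of 0.0139 and 0.0338, which brought the called members to 7.

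RefSeq promoter sequences of GRCm38.p6 were searched for the p53 site, taken as a pair of decamers of the p53 consensus with at most a 13-base spacer, and for a single decamer. The windows were the 250 bases before each annotated start. The full site was found in 18 of 27025 genes with a window, 0.0666%, and in 1 of the 18 p53 targets with a window, 5.56%. That gene was Cdkn1a. A single decamer was present in 8 of the 18 targets, 44.4%, against 8.2% of all genes. The sequences below are shown because both genes were called, and the window of Cdkn1a holds the full site and that of Ccng1 a single decamer. Each is the window from 250 to 31 bases before the start, 5′ to 3′ in the direction of the gene, with the motif in capitals and, for Cdkn1a, the spacer between its decamers also in capitals.
Cdkn1a, chr17:29090729-29090948, + strand: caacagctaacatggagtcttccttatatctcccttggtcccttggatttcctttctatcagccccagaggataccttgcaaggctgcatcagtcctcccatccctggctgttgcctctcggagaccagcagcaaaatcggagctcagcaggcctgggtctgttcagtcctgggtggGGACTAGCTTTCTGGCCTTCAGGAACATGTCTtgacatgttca
Ccng1, chr11:40755317-40755536, - strand: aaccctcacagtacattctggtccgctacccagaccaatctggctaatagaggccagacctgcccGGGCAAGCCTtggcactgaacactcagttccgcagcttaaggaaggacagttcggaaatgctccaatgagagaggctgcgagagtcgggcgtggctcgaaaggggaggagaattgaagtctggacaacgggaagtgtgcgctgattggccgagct
A match is a description of letters and not evidence of binding.

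The 3 genes with the firmest changes beside the p53 targets were Ptgds, Chpf and Uroc1. Ptgds (chromosome 2, 25466709 to 25470110), which makes prostaglandin D2, was at 2.49, 5.07 and 2.90 CPM in sham CreMinus kidneys and at 35.3, 41.2 and 78.1 CPM in UNx CrePlus kidneys. The female UNx CrePlus kidney was the highest of the series. It rose 14.8-fold (log2 fold change 3.88 ± 0.37, edgeR adjusted p = 0.00204). Sham CrePlus kidneys held 34.5, 23.8 and 26.7 CPM and UNx CreMinus kidneys 2.47, 4.05 and 3.14 CPM. Of the 15 prostaglandin genes tested, Ptgds was the only one called, against 0.12% of all tested genes called higher.

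Chpf (chromosome 1, 75474569 to 75479471), an enzyme factor that lengthens chondroitin chains, was at 23.3, 20.1 and 19.0 CPM in controls and at 51.9, 49.1 and 42.0 CPM in UNx CrePlus kidneys. The rise was 1.20 ± 0.10 (edgeR adjusted p = 0.00204). Sham CrePlus kidneys were at 45.6, 44.5 and 43.2 CPM, inside the UNx CrePlus range, and UNx CreMinus kidneys at 18.003, 19.7 and 19.96 CPM, near the controls. Uroc1 (chromosome 6, 90333239 to 90364551), the urocanase that acts in histidine breakdown, fell 4.23-fold, from 105, 88.6 and 73.5 CPM to 19.1, 24.6 and 19.5 CPM. Its log2 fold change was -2.08 ± 0.20 (edgeR adjusted p = 0.00204). Uroc1 was the only called member of the 24 tested amino acid breakdown genes, against 0.0334% of all tested genes called lower. Sham CrePlus kidneys held 34.3, 24.6 and 34.0 CPM and UNx CreMinus kidneys 90.5, 111 and 136 CPM. Cdkn1a, Zmat3, Ptgds, Chpf and Uroc1 were the only called genes that stayed called in each of the 12 fits that left out 1 library. Aldh1a7 and Slc34a2 lost their call without sham CreMinus replicate 2 or UNx CrePlus replicate 1, and Slc34a2 also without sham CreMinus replicate 1. Eda2r and Cables2 lost it without UNx CrePlus replicate 1 or any 1 of the sham CreMinus libraries. The other 14 were called in 1 to 7 of the 12 fits.

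**Figure D1:**
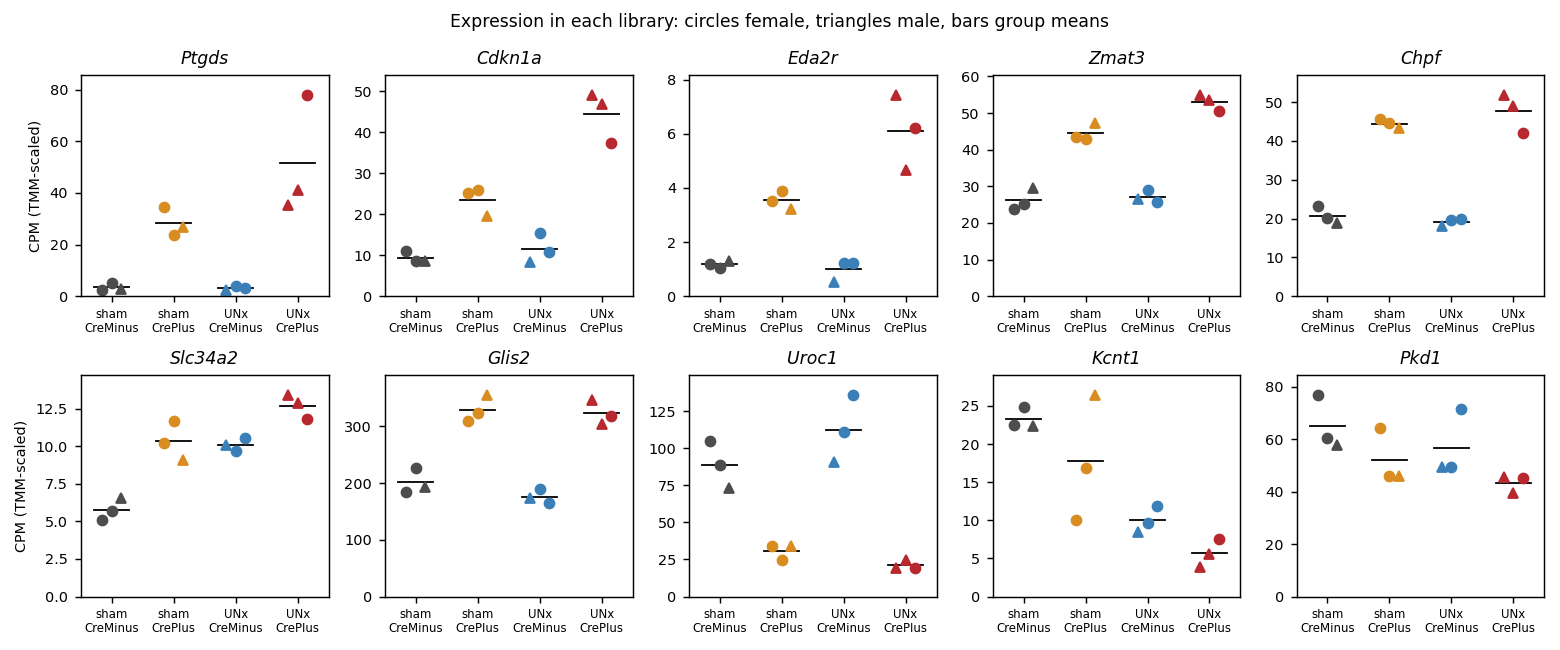
CPM of 9 called genes and of Pkd1 in each of the 12 libraries, by group, with circles for female and triangles for male kidneys and bars for group means; each axis starts at 0. Ptgds, Cdkn1a, Eda2r, Zmat3 and Chpf are high in both CrePlus groups and low in both CreMinus groups, Uroc1 shows the opposite order, and Kcnt1 is lowest in UNx CrePlus kidneys.

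Among the other genes that rose, Esr1 (chromosome 10, 4611989 to 5005633), a nuclear receptor gene, was at 2.99, 4.09 and 8.28 CPM in controls and at 42.0, 55.6 and 23.7 CPM in UNx CrePlus kidneys. It rose 7.91-fold (2.98 ± 0.46, edgeR adjusted p = 0.0428), and sham CrePlus kidneys were at 31.1, 30.0 and 26.8 CPM. Clca1 (chromosome 3, 145004537 to 145032776), named for a chloride channel accessory protein, was at 3.21, 2.77 and 3.60 CPM in controls and at 21.6, 19.6 and 8.29 CPM in UNx CrePlus kidneys. Its change was 2.36 ± 0.38 (edgeR adjusted p = 0.0453). Sham CrePlus kidneys were at 6.06, 3.35 and 3.46 CPM, below the 3 UNx CrePlus libraries.

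Slc34a2 (chromosome 5, 53049353 to 53071664), a sodium-phosphate cotransporter gene, was higher than controls in each of the 3 other groups. Controls held 5.07, 5.68 and 6.55 CPM, sham CrePlus kidneys 10.2, 11.7 and 9.09, UNx CreMinus kidneys 10.1, 9.70 and 10.5, and UNx CrePlus kidneys 13.4, 12.9 and 11.8. Its joint change was 1.14 ± 0.13 (edgeR adjusted p = 0.00901). Aldh1a7 (chromosome 19, 20692953 to 20727556), an aldehyde dehydrogenase gene, went from 20.1, 17.3 and 13.6 CPM to 45.8, 34.2 and 40.2 CPM (1.24 ± 0.15, edgeR adjusted p = 0.0135). Its near relative Aldh1a1 has a similar sequence, so reads may be split between them. The groups with a single manipulation stayed between 20.0 and 24.6 CPM for Aldh1a7.

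Genes that fell beside Uroc1 included Kcnt1 (chromosome 2, 25863791 to 25918273), a sodium-activated potassium channel gene, which was at 22.5, 24.8 and 22.4 CPM in controls and at 3.85, 5.61 and 7.49 CPM in UNx CrePlus kidneys. It fell 4.11-fold (log2 fold change -2.04 ± 0.33, edgeR adjusted p = 0.0453). It was the only called gene with a larger change with UNx in CreMinus kidneys (-1.22) than with Cre in sham kidneys (-0.39). Slc16a11 (chromosome 11, 70213695 to 70216414), a monocarboxylate transporter gene, went from 21.9, 19.8 and 18.4 CPM to 10.2, 11.2 and 10.6 CPM (-0.90 ± 0.14, edgeR adjusted p = 0.0357).

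Other called genes were outside the rule for naming and were chosen after their values were seen. Il1rap, a coreceptor of interleukin-1 signals, rose by 0.77, Cables2 by 0.89, Cdc42bpa by 0.46 and 2610034B18Rik by 0.75, and 1700003D09Rik fell by 1.59.

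The joint change was set beside each single manipulation against the same sham CreMinus controls. These comparisons share the 3 control libraries, so their values are given side by side only. CrePlus against CreMinus in sham kidneys called 4 genes, 0.0267% of all tested: Ptgds, Zmat3, Chpf and Uroc1, all among the 23. UNx against sham in CreMinus kidneys called 0 by edgeR, 0% of all tested, with 194 genes at an unadjusted p under 0.05 and 2 called by DESeq2. For the 23 genes, the median size was 1.14 jointly, 0.71 with Cre in sham kidneys and 0.16 with UNx in CreMinus kidneys. By value 22 of 23 were larger with Cre than with UNx, with near ties for Slc34a2 (0.84 against 0.81) and Aldh1a7 (0.36 against 0.32). The 23 genes were picked by the joint change, and the same share over all tested genes was not counted. In UNx kidneys CrePlus against CreMinus called 21 genes, 0.14% of all tested, of which 13 were among the 23. UNx against sham in CrePlus kidneys called 0 by edgeR, with 1022 at an unadjusted p under 0.05 and 10 called by DESeq2. The interaction of Cre and surgery called 0 genes by edgeR and 0 by DESeq2, with 277 at an unadjusted p under 0.05, and its adjusted p was 1 for each of the 23 genes. The depth of the libraries in the sham kidneys of both genotypes was alike, at 20500587 to 22480895 counts.

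**Figure D2:**
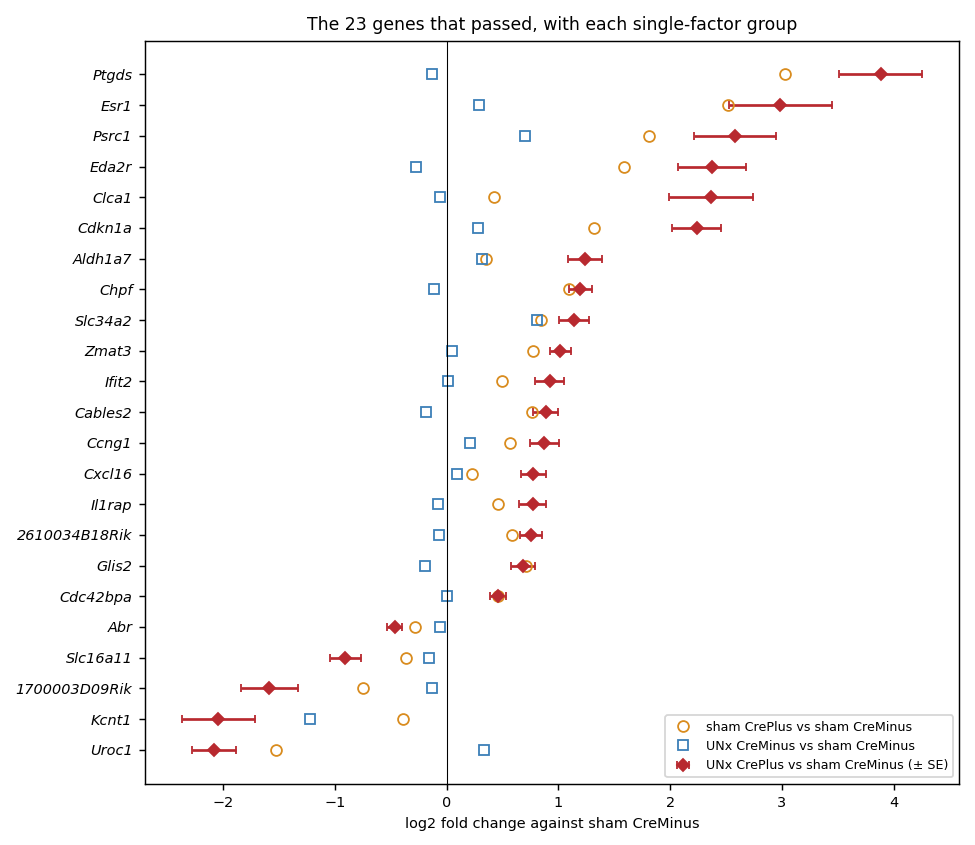
Log2 fold change of the 23 called genes against sham CreMinus: the joint change with SE (diamonds), Cre in sham kidneys (open circles) and UNx in CreMinus kidneys (open squares). For 22 of the 23 genes the circle lies farther from 0 than the square, with a median size of 0.71 against 0.16. For Slc34a2 and Aldh1a7 the circle and the square nearly coincide, and the share over all tested genes was not counted.

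Among polycystin and cystic disease genes Glis2 was the only called member of 24 tested, against 0.12% of all tested genes called higher. Glis2 (chromosome 16, 4594320 to 4625141), a transcription factor whose loss causes nephronophthisis, was at 184, 226 and 194 CPM in controls and at 345, 304 and 319 CPM in UNx CrePlus kidneys. It rose by 0.68 ± 0.11 (edgeR adjusted p = 0.0453). Sham CrePlus kidneys held 310, 323 and 355 CPM and UNx CreMinus kidneys 173, 189 and 165 CPM. Pkd2 (polycystin-2) was at 260, 330 and 294 CPM in controls and at 457, 401 and 487 CPM in UNx CrePlus kidneys (0.61 ± 0.12, edgeR adjusted p = 0.0916), and was called with a sex term (adjusted p = 0.0406). Pkd2 was chosen after its values were seen. The median of the list was 0.07, with 16 of 24 positive, against 49.1% of all tested genes.

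Cell cycle genes had the largest median change of the lists, 1.86. EdgeR called 0 of 28, against 0.12% of all tested genes called higher, and DESeq2 called 20 higher, against 1.91%. Each of the 28 was positive, against 49.1% of all tested genes. At an unadjusted p under 0.05, 24 of 28 were higher, against 7.46% of all genes. In the higher direction 18 lay apart from the controls, against 10.4% of all genes. Rrm2 (chromosome 12, 24708254 to 24714146), a subunit of the enzyme that makes deoxynucleotides, was at 7.74, 6.48 and 5.94 CPM in controls and at 29.1, 32.9 and 11.1 CPM in UNx CrePlus kidneys (1.86 ± 0.42, edgeR adjusted p = 0.133). Cenpf (chromosome 1, 189640606 to 189688107), a kinetochore protein gene, was at 2.90, 2.11 and 2.29 CPM and at 12.7, 14.2 and 3.43 CPM (2.05 ± 0.51, edgeR adjusted p = 0.162). Mki67, the proliferation marker, chosen after its values were seen, was at 8.37, 5.03 and 8.18 CPM and at 43.3, 42.6 and 10.4 CPM (2.16 ± 0.55, adjusted p = 0.165). In all 3 genes the 2 male UNx CrePlus kidneys were high and the female lay just above the controls.

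Averaged over the list, the level relative to the control mean was 1.82 and 1.99 on the log2 scale in the 2 male UNx CrePlus kidneys and 0.37 in the female, against -0.25 to 0.16 in the controls. The median log2 fold change of the list was 2.17 in males and 0.38 in females. UNx CreMinus libraries were at 0.70, 1.02 and -0.24, and sham CrePlus libraries at 0.47, 0.14 and 0.71. In promoters, the CCAAT box was in the window of 19 of the 23 cell cycle genes with one, 82.6%, against 37.5% of all genes. The CHR motif TTTGAA was in 8 of 23, 34.8%, against 18.3%, with both strands searched for each motif. The windows of Rrm2 and Cenpf are shown as the 2 list members named by the rule, with CCAAT in capitals and from 250 to 31 bases before the start.
Rrm2, chr12:24708004-24708223, + strand: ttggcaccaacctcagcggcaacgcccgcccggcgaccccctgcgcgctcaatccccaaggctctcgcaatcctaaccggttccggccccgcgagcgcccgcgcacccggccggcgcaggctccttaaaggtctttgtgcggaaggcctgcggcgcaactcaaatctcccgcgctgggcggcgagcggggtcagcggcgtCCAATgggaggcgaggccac
Cenpf, chr1:189688117-189688336, - strand: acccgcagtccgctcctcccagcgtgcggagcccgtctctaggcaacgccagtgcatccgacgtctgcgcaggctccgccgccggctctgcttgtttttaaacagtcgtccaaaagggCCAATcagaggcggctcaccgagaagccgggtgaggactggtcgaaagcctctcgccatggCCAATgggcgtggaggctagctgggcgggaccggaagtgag

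**Figure D3:**
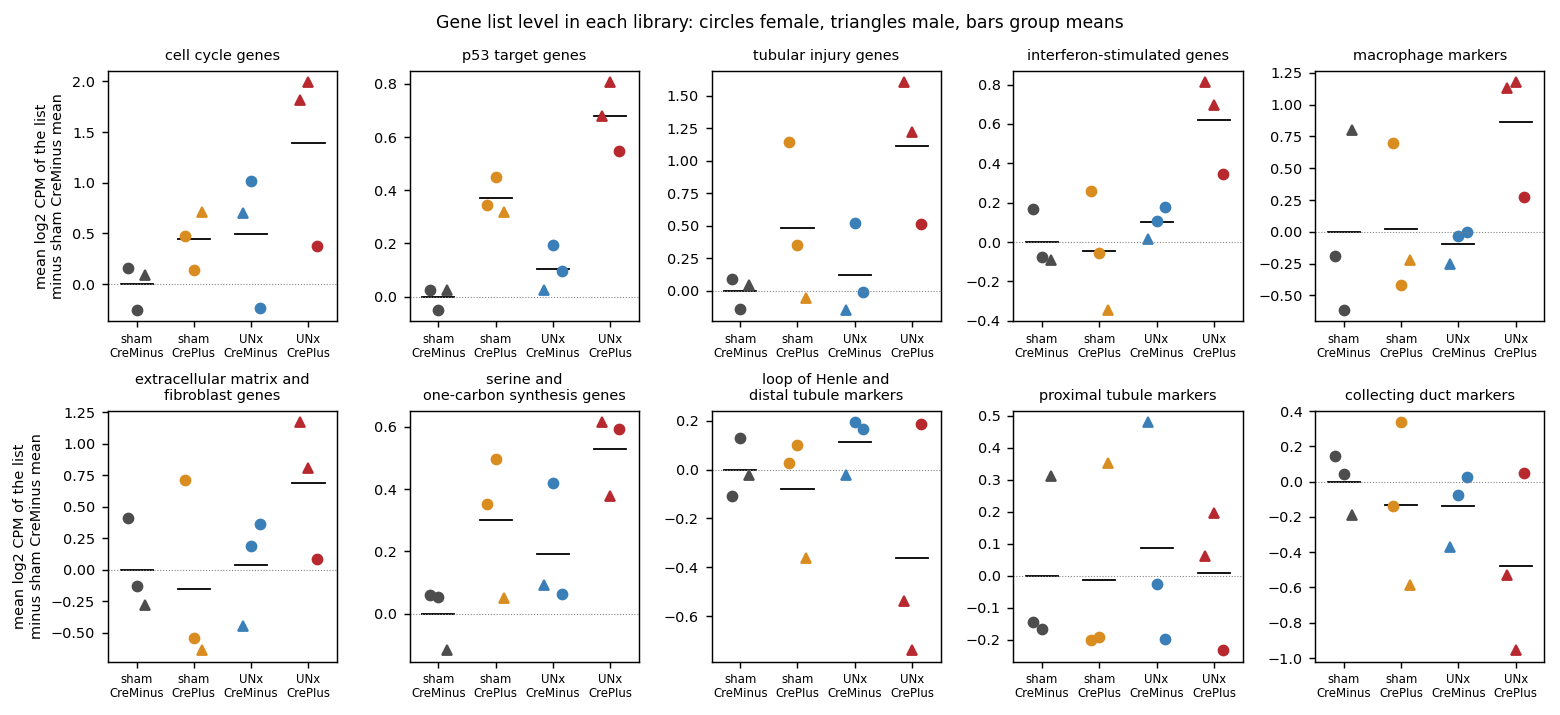
Mean log2 CPM of 10 gene lists in each library, relative to the sham CreMinus mean, by group, with circles for female and triangles for male kidneys. Cell cycle genes are high in the 2 male UNx CrePlus kidneys (1.82 and 1.99) and near the controls in the female (0.37), while p53 targets are above the controls in all 3 (0.55 to 0.81).

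Tubular injury genes were positive in 24 of 26 tested, against 49.1% of all tested genes, with a median of 0.69. Cdkn1a was the only called member, against 0.12% of all genes called higher. At an unadjusted p under 0.05, 12 were higher, against 7.46% of all genes, and 1 lower, against 6.12%. DESeq2 called 5 higher, against 1.91%, and 1 lower, against 0.828%. The injury marker Havcr1 (kidney injury molecule 1) was at 2.17, 1.32 and 12.2 CPM in controls and at 74.8, 51.2 and 33.0 CPM in UNx CrePlus kidneys. It was also at 74.2 CPM in sham CrePlus replicate 1 and at 121 CPM in UNx CreMinus replicate 2 (joint change 3.34 ± 1.55, edgeR adjusted p = 0.379). Lcn2, another injury marker, was at 24.1, 16.3 and 0.733 CPM in UNx CrePlus kidneys against 0.679, 0.846 and 1.22 CPM in controls (3.90 ± 1.07, adjusted p = 0.189), so the female overlapped with the controls, and in females its log2 fold change was -0.050. Both were chosen after their values were seen. The list level was 1.61, 1.22 and 0.51 in UNx CrePlus kidneys, against -0.14 to 0.09 in the controls. Sham CrePlus libraries were at 1.15, 0.35 and -0.06, and UNx CreMinus libraries at -0.15, 0.52 and -0.01.

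Extracellular matrix and fibroblast genes were positive in 26 of 29 tested, against 49.1% of all tested genes, with a median of 0.79. At an unadjusted p under 0.05, 9 were higher, against 7.46% of all tested genes. EdgeR called 0, against 0.12% of all genes called higher, and DESeq2 called 3 higher, against 1.91%. Col15a1, a basement membrane collagen gene, was at 46.0, 30.6 and 34.2 CPM in controls and at 106, 84.3 and 52.6 CPM in UNx CrePlus kidneys (1.13 ± 0.30, edgeR adjusted p = 0.179). Mmp2, a matrix protease gene, was at 8.83, 9.35 and 6.03 CPM and at 19.4, 13.95 and 14.2 CPM (0.97 ± 0.28, edgeR adjusted p = 0.208). The median was 1.27 in males and 0.01 in females.

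The immune gene lists differed in the sign of their median. Macrophage markers were positive in 22 of 24 tested, with a median of 0.81, and T and NK cell markers in 9 of 11, with a median of 0.56. Of all tested genes, 49.1% were positive and 50.9% negative. B cell and plasma cell markers were negative in 5 of 5 tested, with a median of -0.45, and neutrophil markers in 4 of 4, with a median of -0.20. The mean log2 level of the neutrophil list was -0.48, -0.77 and 1.24 in controls and 0.16, 0.06 and 0.33 in UNx CrePlus kidneys. Each UNx CrePlus kidney thus lay below control replicate 3 and above control replicates 1 and 2. EdgeR called 0 members of these 4 marker lists, where it called 0.12% of all tested genes higher and 0.0334% lower. At an unadjusted p under 0.05, 5 macrophage and 3 T and NK cell markers were higher, against 7.46% of all genes, and 1 B cell and plasma cell marker was lower, against 6.12%. DESeq2 called 1 T and NK cell marker higher, against 1.91% of all genes, and 0 members of the other 3 lists. Itgax, an integrin of macrophages and dendritic cells, was at 3.08, 2.25 and 2.71 CPM in controls and at 6.30, 11.1 and 3.82 CPM in UNx CrePlus kidneys (1.40 ± 0.46, edgeR adjusted p = 0.237). Among the controls, male replicate 3 had a macrophage level of 0.80, above the 0.27 of the female UNx CrePlus kidney, and the median was 1.44 without it. Cxcl16, a chemokine gene, was the only called member of 12 tested macrophage chemokines and growth factors, against 0.12% of all genes called higher. It was at 41.1, 54.2 and 50.7 CPM in controls and at 85.2, 83.4 and 81.2 CPM in UNx CrePlus kidneys, which were almost equal and apart from the controls (0.77 ± 0.11, edgeR adjusted p = 0.0295).

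Interferon-stimulated genes were positive in 20 of 21 tested, against 49.1% of all tested genes, with a median of 0.66. Of the 21, 15 were higher at an unadjusted p under 0.05, against 7.46% of all genes. Ifit2 (chromosome 19, 34550550 to 34576534), an interferon-induced RNA-binding protein gene, was the only called member, against 0.12% of all genes called higher. It was at 12.5, 14.8 and 11.3 CPM in controls and at 27.5, 22.0 and 23.6 CPM in UNx CrePlus kidneys (0.92 ± 0.13, edgeR adjusted p = 0.0276). Irf7, the interferon regulatory factor that amplifies interferon production, was at 16.3, 13.6 and 12.95 CPM and at 24.6, 26.4 and 16.7 CPM (0.66 ± 0.19, adjusted p = 0.208). The core motif of the interferon-stimulated response element, searched on both strands, was in the window of 10 of the 15 list members with one, 66.7%, against 3.46% of all genes. The 10 MHC class II genes tested were all positive, against 49.1% of all tested genes, with a median of 0.45. EdgeR called 0, against 0.12% of all genes called higher, and DESeq2 called 0, against 1.91%. At an unadjusted p under 0.05, 3 were higher, against 7.46% of all genes.

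Serine and one-carbon synthesis genes had a median of 0.44, and 6 of 12 were higher at an unadjusted p under 0.05, against 7.46% of all tested genes. EdgeR called 0, against 0.12% of all genes called higher, and DESeq2 called 4 higher, against 1.91%. Psat1, a serine synthesis enzyme gene, was at 17.9, 23.8 and 20.7 CPM in controls and at 65.3, 54.2 and 46.2 CPM in UNx CrePlus kidneys (1.41 ± 0.25, edgeR adjusted p = 0.0572). Mthfd2, an enzyme of mitochondrial folate metabolism, was at 3.35, 2.54 and 2.71 CPM and at 7.39, 7.06 and 5.40 CPM (1.21 ± 0.22, edgeR adjusted p = 0.0623). With a sex term Psat1 (adjusted p = 0.0308), Mthfd2 (0.031) and Asns (0.0338), which makes asparagine and was chosen after its values were seen, were called. In each, the 3 UNx CrePlus kidneys lay above the 3 controls.

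Loop and distal tubule markers and collecting duct markers had mostly negative fold changes, while proximal tubule markers were near the share of all genes. EdgeR called 0 markers of tubule segments, against 0.12% of all tested genes called higher and 0.0334% lower. Proximal tubule markers had a median of -0.04, with 15 of 26 negative, against 50.9% of all tested genes, 4 of them lower at an unadjusted p under 0.05 (6.12% of all genes) and 2 called lower by DESeq2 (0.828% of all genes), and 1 marker was higher at an unadjusted p under 0.05 (7.46% of all genes). Lrp2, the endocytic receptor megalin, was at 3345, 3462 and 2706 CPM in controls and at 2176, 1908 and 2332 CPM in UNx CrePlus kidneys (-0.57 ± 0.15, edgeR adjusted p = 0.184). For loop and distal tubule markers the median was -0.19, and 14 of 18 were negative, against 50.9% of all tested genes. At an unadjusted p under 0.05, 1 was lower, against 6.12% of all genes, and 1 higher, against 7.46%. DESeq2 called 0 lower, against 0.828%, and 1 higher, against 1.91%. The list median was -0.38 in males and 0.08 in females. The member of smallest p was higher: Cldn19, a tight junction gene of the thick ascending limb, was at 33.0, 37.8 and 31.0 CPM in controls and at 45.1, 55.5 and 46.5 CPM in UNx CrePlus kidneys (0.53 ± 0.13, edgeR adjusted p = 0.149, DESeq2 adjusted p = 0.0142). Its UNx CrePlus libraries lay above the controls. Egf, a growth factor made in the distal tubule, was at 2491.5, 2641 and 2518 CPM in controls and at 1289.6, 870.2 and 2065 CPM in UNx CrePlus kidneys (-0.86 ± 0.28, edgeR adjusted p = 0.237). Collecting duct markers were negative in 17 of 20, against 50.9% of all tested genes. Their median was -0.27, and -0.15 with a sex term. At an unadjusted p under 0.05, 6 were lower, against 6.12% of all genes, and DESeq2 called 1 lower, against 0.828%. The list level was -0.53 and -0.96 in the male UNx CrePlus kidneys and 0.05 in the female, against -0.19 to 0.15 in the controls. It was -0.14, 0.34 and -0.59 in sham CrePlus kidneys and -0.37, -0.08 and 0.02 in UNx CreMinus kidneys. In each of the 4 groups the male kidneys had the lowest levels. The chloride-bicarbonate exchanger gene Slc26a4 was at 177, 144 and 140 CPM in controls and at 66.5, 41.7 and 112 CPM in UNx CrePlus kidneys (-1.06 ± 0.36, edgeR adjusted p = 0.246). Sham CrePlus kidneys held 98.4, 143 and 62.3 CPM of it and UNx CreMinus kidneys 94.5, 111 and 143 CPM. In bulk tissue, fewer cells of a type and less RNA per cell cannot be told apart.

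Markers of other cell types and of tissue outside the kidney were examined as well. Of the 8 red blood cell markers, 4 globin genes had no count in any library, and 3 were tested, of which edgeR called 0. At an unadjusted p under 0.05, 2 were lower, against 6.12% of all genes, and 1 higher, against 7.46%. Alas2, a heme synthesis enzyme gene of red cell precursors, was at 27.3, 16.5 and 27.2 CPM in controls and at 8.21, 2.95 and 3.64 CPM in UNx CrePlus kidneys, and did not pass (-2.26 ± 0.44, edgeR adjusted p = 0.0818). It was called with a sex term (adjusted p = 0.0153). Slc4a1, an anion exchanger gene that is also a collecting duct marker, was lower by value (-1.09 ± 0.45, edgeR adjusted p = 0.321). Epb42, a red cell membrane protein gene, was higher by value, with overlapping groups (1.06 ± 0.48, edgeR adjusted p = 0.368), and was chosen after its values were seen. The part of blood in the other results was not tested. Adrenal and adipocyte markers had most of their genes under the filter, 6 of 8 and 5 of 10.

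**Figure D4:**
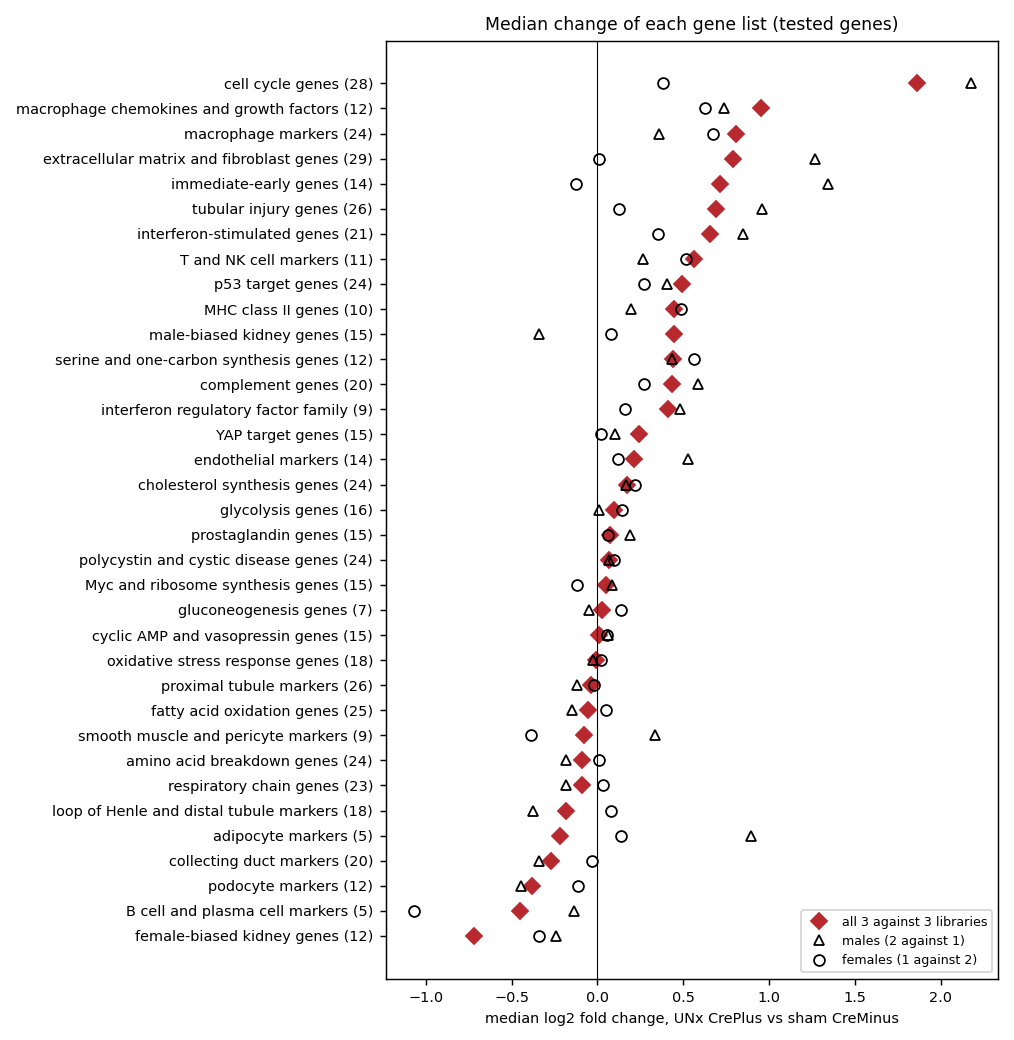
Median log2 fold change of each gene list with at least 5 tested genes in UNx CrePlus against sham CreMinus, with the median over all libraries (diamonds), in males (triangles, 2 against 1) and in females (circles, 1 against 2). Cell cycle, matrix and injury genes have a larger median in males (2.17, 1.27 and 0.96) than in females (0.38, 0.01 and 0.12).

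The 23 called genes had the same direction in both sexes. That follows from their libraries of the 2 groups not overlapping, so it is not a separate result. Their size was 0.46 to 4.43 in females, with a median of 0.99, and 0.47 to 3.68 in males, with a median of 1.12, and 12 of 23 were larger in males. The difference between the sexes was not tested.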

How the data were processed

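Per the labels' protocols, whole-kidney RNA was made into SMART-Seq v4 libraries. That kit does not mark strand, so reads of overlapping or antisense genes could not be separated. The table the authors deposited holds raw read counts, as whole numbers, for each gene in each library. The tools and builds named in the submitters' processing notes are FastQC 0.11.5, cutadapt 1.11, HTSeq, DESeq2, mm10 and GRCm38. Which aligner, gene annotation or strand option was used is not given in the sources used here. The labels list the libraries as separate samples and their protocols state 3 mice of each kind, so p-values reflect how these samples vary. The table had 24067 rows, and 5 repeated symbols with identical counts were kept once, which left 24062 genes. Genes were kept with filterByExpr (14970 tested, 9092 left out). A model of 4 group means over the 12 libraries was fitted in R 4.3.3 with edgeR 4.0.16 (TMM, glmQLFit, glmQLFTest). The SE is the log2 fold change over the root of the F statistic. DESeq2 1.42.0, other scalings, filters, terms for sex and depth, thinned counts and leaving out libraries were the alternatives. Sex was read from Ddx3y (male above 1 CPM) and a library was deep above 3e+07 counts. Within-sex sizes of the called genes are differences of mean log2 CPM with a prior count of 2. The female log2 fold changes of Lcn2 and Irf5 and the within-sex medians of lists come from fits of the libraries of that sex.

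The members and lists were chosen with earlier results of these data known. Of 683 entries in 40 lists, 673 were matched, 615 tested and 58 filtered. Lists are described by counts and medians. Genes named by rule were Pkd1 and Irf5, the 10 largest called changes per direction (mean of at least 1 CPM, no overlap between groups, no systematic symbol), the 5 of smallest p per direction, up to 3 called members of each list and, for a list with none, its 2 members of smallest p. Scripts were tested on simulated data. Positions are from GRCm38 and 14817 tested genes had one. The values of 1 gene that fell are not reported here.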

Additional observations from a re-analysis of the deposited data

Results flagged for a closer look

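For 7 gene lists the mean log2 level in UNx CrePlus relative to sham CreMinus went one way in males (2 against 1 library) and the opposite way in females (1 against 2 libraries), and the difference between the sexes was not tested. Neutrophil markers were -1.13 in males and 0.95 in females, with sham CreMinus replicate 3 at 1.24 above the control mean. Loop of Henle and distal tubule markers were -0.61 and 0.18, and urothelium markers -0.20 and 1.72. Fatty acid oxidation genes were -0.10 and 0.09, and respiratory chain genes -0.18 and 0.04. Myc and ribosome synthesis genes were 0.16 and -0.04, and sex chromosome genes -0.53 and 0.16.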

How the results depend on the processing

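No paired analysis was possible because the labels carry no replicate numbers. The count of 23 called genes was 20 to 30 with other scalings and filters and 17 with counts thinned to equal depth. It was 413 with DESeq2, 12 with only the 6 libraries in the fit (6 of them among the 23), 141 with a sex term, 0 with terms for sex and depth, 5 in females and 457 in males, whose fit has replicates in UNx CrePlus only. Leaving out 1 library gave 5 to 252. It was 6 without sham CreMinus replicate 1, 7 without replicate 3, 9 without UNx CrePlus replicate 2, 11 without sham CrePlus replicate 2 and 14 without UNx CreMinus replicate 2. With a sex term and 1 library left out, an alternative chosen after seeing the data, the counts were 29, 43 and 9 without sham CreMinus replicates 1, 2 and 3, and 40, 86 and 434 without UNx CrePlus replicates 1, 2 and 3. Cre in sham kidneys called 42 with DESeq2, 10 with a sex term, 8 with sex and depth terms and 0 to 3 leaving out 1 library. Cre in UNx kidneys called 188, 112 and 8 in the same order, and 6 to 48. UNx called 2 in CreMinus and 10 in CrePlus kidneys with DESeq2. With sex and depth terms Cdkn1a and Zmat3 came nearest to the threshold (2.88 and 1.18, adjusted p = 0.0575 for both). Irf5 was -0.043 to 0.65 leaving out 1 library, and reversed to -0.13 in females, to -0.043 without UNx CrePlus replicate 2 and to -0.11 with a sex term and without that library. Lcn2 reversed to -0.050 in females. Over the single genes, 1514 values kept their side and direction, 242 lost and 124 gained a call, and 4 reversed. The cause of these changes was not tested. The depth term could be fitted because UNx CreMinus holds 1 deep and 2 shallow libraries, and the deep library is also its only male. Between the 6 libraries of the comparison depth and group cannot be told apart.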
